A study of Mus musculus with 27 samples.

Results

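Broad domains of histone H3 lysine 27 acetylation (H3K27ac) in mouse hematopoietic progenitor cells (HPC) were peaks at least 4 kb wide, taken separately from the fetal and the adult peak list, so that the members were chosen by the width of the authors' peaks. The fetal list held 501 such domains among 50858 peaks (0.985%), and the adult list 1660 among 63108 (2.63%). Widths and the fold values of the same lists are therefore given as a description and support nothing. The study mapped histone marks by ChIPmentation, in which antibody-bound chromatin is cut and tagged by the Tn5 transposase, in sorted HSC (hematopoietic stem cells) and HPC of the B6 strain. Fetal cells came from E16.5 embryos and adult cells from mice that were 8 weeks old, with no treatment and no genetic change named in the labels, which also give neither the tissue of origin nor the sort gates. Besides H3K27ac in HPC, the series held H3K4me1 in HSC and HPC and a second K27 set in HPC, whose titles read H3K27me3 while its mark field reads H3K27ac. Libraries of a group were pooled into 1 peak list, so no value below has a replicate spread and no p-value is given. Intervals after shares are 95% Wilson intervals, and those after differences are Newcombe intervals; both cover counting error only.

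H3K27ac is placed by the acetyltransferases p300 and CBP and marks active enhancers and active promoters. H3K4me1 is found at enhancers, active or not, and on the flanks of promoters, where H3K4me3 takes its place at the start itself. Unusually wide stretches of H3K27ac, often called super-enhancers or stretch enhancers when they lie away from starts, are known to gather at genes that set cell identity, and in blood progenitors such genes encode the transcription factors of the HOX, ETS, RUNX, LMO2 and MEIS families. H3K27me3 is the Polycomb mark of silent genes, and a nucleosome tail cannot carry acetylation and trimethylation on the same lysine.

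The results on single genes turn on a few promoters, shown as sense-strand RefSeq sequence of GRCm38.p6, from upstream of the annotated start to just past it. Hoxa9 (chr6:52227321-52227620, minus strand), Erg (chr16:95459299-95459598, minus) and Meis1 (chr11:19018920-19019219, minus) had the start shown in a domain at both ages, for Erg the most internal of its annotated starts. Igf2bp3 (chr6:49214905-49215204, minus) and Hmga2 (chr10:120476420-120476719, minus) had it in a fetal domain, and Fos (chr12:85473640-85473939, plus) in an adult domain. Capitals mark matches, on either strand, to any of the 11 motifs searched. These were the TATA box as TATAAA, the GC box as GGGCGG, the CCAAT box as CCAAT, the NRF1 element as GCATGCGC, the cAMP response element as TGACGTCA, the E-box as CACGTG, the AP-1 element as TGANTCA, the GATA element as AGATAA, the RUNX element as TGTGGT, the ETS element as CCGGAAG and the C/EBP element as TTGCGCAA. Matches of different motifs may overlap.
Hoxa9: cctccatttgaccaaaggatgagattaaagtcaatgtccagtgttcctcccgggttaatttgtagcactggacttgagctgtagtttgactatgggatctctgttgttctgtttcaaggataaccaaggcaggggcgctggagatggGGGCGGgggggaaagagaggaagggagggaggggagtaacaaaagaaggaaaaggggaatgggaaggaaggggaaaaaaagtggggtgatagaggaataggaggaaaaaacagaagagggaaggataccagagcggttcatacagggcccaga
Erg: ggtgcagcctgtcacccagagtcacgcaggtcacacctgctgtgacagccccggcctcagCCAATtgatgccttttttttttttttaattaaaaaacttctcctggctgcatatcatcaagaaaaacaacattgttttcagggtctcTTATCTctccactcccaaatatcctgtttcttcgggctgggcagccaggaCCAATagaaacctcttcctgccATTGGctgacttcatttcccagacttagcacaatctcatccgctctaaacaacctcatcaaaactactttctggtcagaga
Meis1: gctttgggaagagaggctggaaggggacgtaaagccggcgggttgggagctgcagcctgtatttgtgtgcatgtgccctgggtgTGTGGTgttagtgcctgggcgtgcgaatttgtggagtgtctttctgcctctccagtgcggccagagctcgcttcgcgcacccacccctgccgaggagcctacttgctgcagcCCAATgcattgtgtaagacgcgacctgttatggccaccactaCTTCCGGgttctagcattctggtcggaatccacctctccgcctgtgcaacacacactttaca
Igf2bp3: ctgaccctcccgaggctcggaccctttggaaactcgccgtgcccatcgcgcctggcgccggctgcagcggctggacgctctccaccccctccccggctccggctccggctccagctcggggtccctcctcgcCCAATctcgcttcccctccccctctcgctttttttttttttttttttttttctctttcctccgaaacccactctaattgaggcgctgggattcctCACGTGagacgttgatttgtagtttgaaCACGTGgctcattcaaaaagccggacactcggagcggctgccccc
Hmga2: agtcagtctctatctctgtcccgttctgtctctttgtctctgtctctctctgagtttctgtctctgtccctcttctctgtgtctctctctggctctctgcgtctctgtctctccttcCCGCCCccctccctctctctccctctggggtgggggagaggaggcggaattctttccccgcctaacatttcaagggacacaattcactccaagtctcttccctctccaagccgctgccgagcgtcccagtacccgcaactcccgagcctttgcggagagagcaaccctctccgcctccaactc
Fos: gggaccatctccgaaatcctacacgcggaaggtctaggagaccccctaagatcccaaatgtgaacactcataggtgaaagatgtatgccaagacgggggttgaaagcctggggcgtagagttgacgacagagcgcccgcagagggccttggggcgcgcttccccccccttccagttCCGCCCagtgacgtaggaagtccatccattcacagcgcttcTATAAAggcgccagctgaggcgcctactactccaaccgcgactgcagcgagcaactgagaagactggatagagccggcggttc
The promoters of Hoxa9 and Erg held 4 CpG dinucleotides each, that of Hmga2 12, that of Meis1 15, that of Fos 20 and that of Igf2bp3 25. The Igf2bp3 promoter carried CACGTG 2 times and the Fos promoter a TATAAA, but these are letter matches and were not tested as binding sites.

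MicroRNA hairpins were also looked up in the domains, a step added after the widths had been seen. The mature forms below come from hairpins that share bases with a domain, those of miR-196b, miR-21a and miR-142 at both ages and the rest in the adult list. Capitals mark the seed, bases 2 to 8.
mmu-miR-196b-5p: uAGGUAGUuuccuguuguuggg
mmu-miR-21a-5p: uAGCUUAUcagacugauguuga
mmu-miR-142a-5p: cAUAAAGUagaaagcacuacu
mmu-miR-142a-3p: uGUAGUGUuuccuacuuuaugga
mmu-miR-142b: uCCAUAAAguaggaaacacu
mmu-miR-223-3p: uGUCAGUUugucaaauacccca
mmu-miR-23a-3p: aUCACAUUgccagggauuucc
mmu-miR-27a-3p: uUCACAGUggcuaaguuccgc
mmu-miR-24-3p: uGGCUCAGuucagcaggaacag
mmu-miR-191-5p: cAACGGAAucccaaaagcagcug
mmu-miR-425-5p: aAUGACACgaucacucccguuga
No 2 of these mature forms shared a seed. The mature miR-142b is read from the strand opposite to miR-142a-3p.

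Each H3K27ac list pooled 3 libraries. Fetal H3K27ac peaks covered 45.04 Mb with a median width of 521 bp, and adult peaks covered 71.8 Mb with a median of 700 bp. The H3K4me1 lists held 126502 to 231188 peaks each from 3 or 4 libraries, and the second K27 lists 54339 fetal and 54293 adult peaks from 2 and 3 libraries. Read depth is unknown for every library, so the greater number and width of adult peaks cannot be told apart from a difference in depth. As a check of the HPC label, 24 of 25 listed stem and early progenitor factors carried at least 1 H3K27ac peak at each age, where 54.9% of all coding genes did in the fetal and 62.2% in the adult list. Hepatocyte markers carried one at 2 (fetal) and 3 (adult) of 12 genes, stromal markers at 2 and 3 of 10, B cell markers at 3 and 6 of 10, T and NK cell markers at 5 and 7 of 13, macrophage markers at 5 and 4 of 10, and housekeeping genes at 20 of 20. Endothelial markers, several of which stem cells share, carried a peak at 10 (fetal) and 9 (adult) of 12 genes.

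The fetal domains had a median width of 4752 bp and together spanned 2.63 Mb, 5.84% of all bases under fetal H3K27ac peaks. The adult domains had a median width of 5046 bp and spanned 9.57 Mb, 13.3% of the adult acetylated bases. Widths of 10 kb or more were reached by 10 fetal and 79 adult domains. The authors' fold over background at the summit had a median of 12.2 in fetal and 12.7 in adult domains, against 3.35 and 3.19 over each whole list. The fetal peaks just inside were 4004 bp (in Phip), 4008 bp (in Utrn and in Jmjd1c) and 4012 bp (in Ctla2b), and the 4 just outside were all 3996 bp (in Pde4d, Muc13, Supt3 and Susd1). The adult peaks just inside measured 4000 to 4002 bp (in Mex3b, Lrch1, Rph3al and Ppp2r5c), and those just outside 3996 to 3999 bp. Chromosome X held 1 fetal domain and 7 adult domains, which was 0.176% (0.0310% to 0.989%) and 0.972% (0.472% to 1.99%) of the peaks on that chromosome, and chromosome Y held none of its 4 fetal and 5 adult peaks.

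The widest fetal domain, 17105 bp on chr6:52215918-52233022, ran over the starts of Hoxa7 and Hoxa9, homeobox factors of the stem cell programme, and into Hoxa10. It lay inside an adult domain of 23217 bp (chr6:52211746-52234962) that also reached a start of Hoxa3 and a start of Hoxa10, within the Hoxa10 gene body. The other 9 fetal domains of 10 kb or more included several at regulators of blood cell development. Domains of 12065 bp (chr13:83564711-83576775) and 11360 bp (chr13:83522626-83533985) each held a start of Mef2c, a MADS-box factor of lymphoid and myeloid choice. A domain of 12548 bp (chr2:26570292-26582839) held one of the starts of Egfl7, a secreted protein of endothelium and early progenitors. A domain of 10063 bp (chr16:95450505-95460567) held one of the starts of Erg, an ETS factor required by stem cells. Away from starts, fetal domains lay inside Celf2 (12302 bp, chr2:6703254-6715555), which encodes an RNA-binding splicing regulator, and inside Etv6 (10820 bp, chr6:134181321-134192140), which encodes an ETS-family repressor. Intergenic domains of 12927 bp (chr5:75824146-75837072) and 10736 bp (chr2:103929197-103939932) had as their nearest coding gene Kdr, at 95754 bp, and Lmo2, at 17970 bp. Lmo2 encodes the LIM-domain bridge of the SCL complex. The last, of 10557 bp (chr17:83953746-83964302), lay 104764 bp from Haao. Each of the 10 was covered to between 86.2% and 100% by adult H3K27ac peaks.

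The 12 widest adult domains measured 15633 to 33462 bp. Of these, 3 lay within one stretch of chromosome 17 between Haao and Zfp36l2, the gene of an RNA-binding protein that destabilises transcripts: 33462 bp on chr17:84134804-84168265, 24047 bp on chr17:83971383-83995429 and 18433 bp on chr17:84111669-84130101. None of the 3 held a gene start, and the widest ended 15658 bp short of Zfp36l2. In the fetal list the same 3 intervals were broken into 14, 11 and 7 separate peaks, the widest of which measured 3150, 6123 and 3976 bp. Other adult domains in this group held starts of Spns2 (18514 bp), a sphingosine-1-phosphate exporter, of Git2 and Ankrd13a (16420 bp), of Ramp1 (16127 bp), a calcitonin receptor partner, and of Dapp1 (16126 bp), a signalling adaptor. An adult domain of 16902 bp lay inside Zmiz1 (chr14:25468344-25485245), which encodes a transcriptional coregulator, and one of 16926 bp lay 27794 bp from Ggta1. At Spns2 the fetal list held 10 peaks covering 53.3% of the adult domain, and at Zmiz1 it held 9 covering 51.7%.

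Across the window drawn in the lower map (chr17:83939824-84199823), H3K27ac peaks covered 78186 bp in fetal and 161357 bp in adult HPC, and 4 fetal and 7 adult peaks were domains. The adult domain of 33462 bp was covered to 95.9% by fetal HPC H3K4me1, 79.9% by fetal HSC H3K4me1, 100% by adult HPC H3K4me1 and 99.6% by adult HSC H3K4me1, while fetal H3K27ac peaks covered 45.9% of it.

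**Figure D1:**
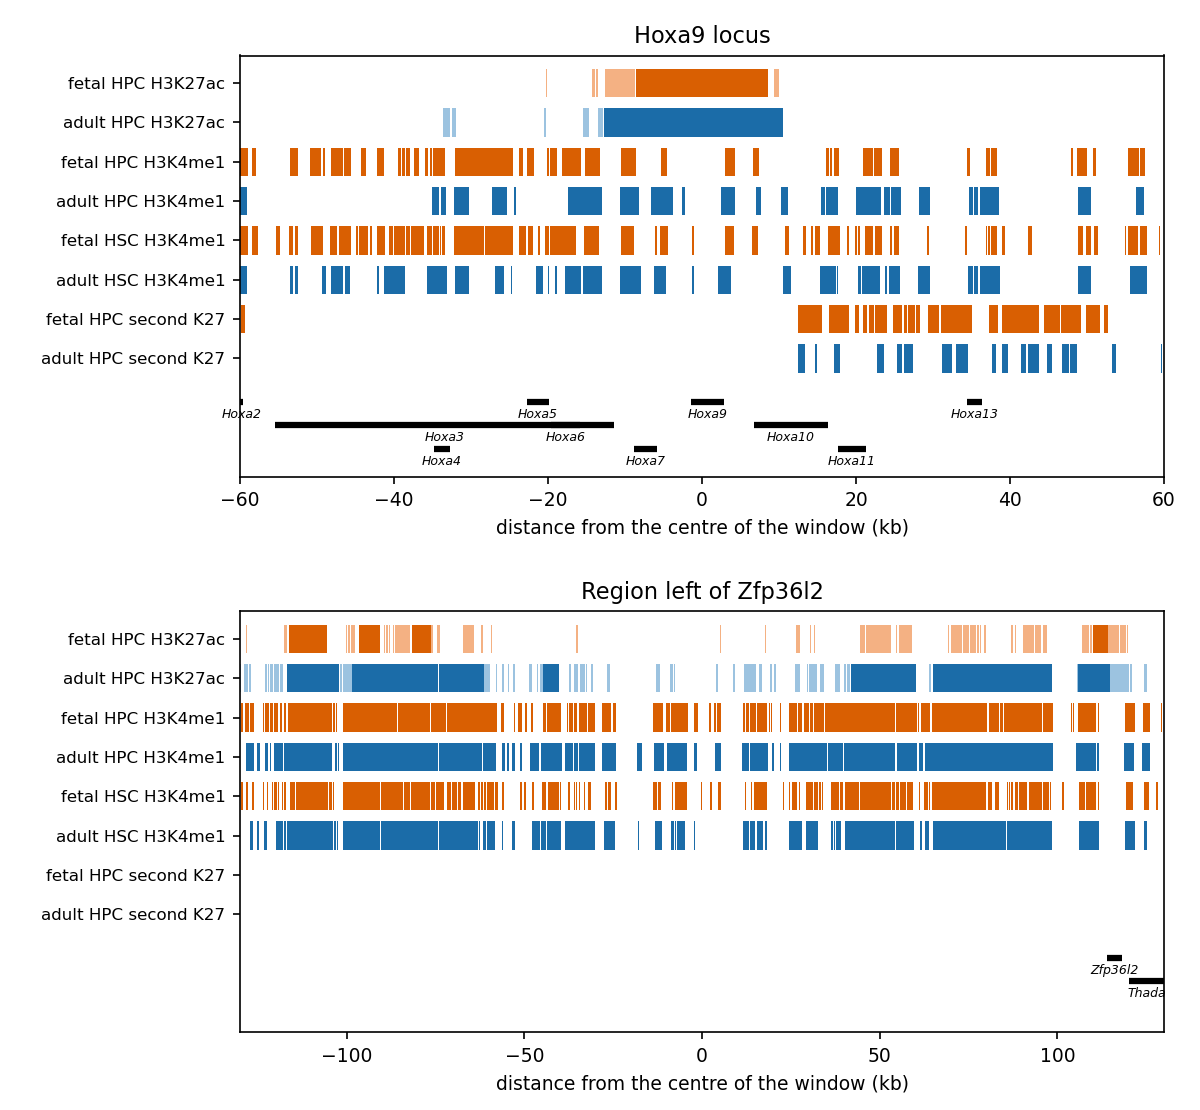
Peaks of all 8 lists around Hoxa9 (upper) and in the stretch that ends at Zfp36l2 (lower) against distance from the window centre in kb; orange is fetal, blue is adult, full colour in the H3K27ac rows marks peaks of 4 kb or more and pale colour narrower ones, and black bars are gene bodies. The Hoxa9 domain is 17105 bp in fetal and 23217 bp in adult HPC, with second K27 peaks to its right in both lists, and the lower window holds 4 fetal and 7 adult domains and no second K27 peak.

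Most fetal domains met an adult domain, whereas most adult domains met only fetal peaks under 4 kb. Of the 501 fetal domains, 401 touched an adult domain (80.0%, 76.3% to 83.3%), against 7.23% of all fetal H3K27ac peaks and 16.9% of those 2 to 4 kb wide. A further 93 met adult peaks of which the widest was 2 to 4 kb, 6 met only adult peaks under 2 kb, and 1 met none. Of the 1660 adult domains, 396 touched a fetal domain (23.9%, 21.9% to 26.0%), against 0.967% of all adult peaks and 1.25% of those 2 to 4 kb wide. Another 741 met fetal peaks of at most 2 to 4 kb, 493 met fetal peaks all under 2 kb, and 30 met none. These shares depend on the number of domains in each list: with the 501 widest adult peaks in place of all 1660, 41.3% of fetal domains touched one and 39.9% of those adult peaks touched a fetal domain. Touching any peak of the other age was near the ceiling in both, with 500 of 501 fetal domains (61.0% of all fetal peaks) and 1630 of 1660 adult domains (41.5% of all adult peaks). Peaks of 2 to 4 kb came to 99.7% in fetal and 91.3% in adult HPC. Domains thus stood 0.124 points above this class in fetal (-0.807 to 0.384, which includes 0) and 6.88 points in adult HPC (5.93 to 7.70).

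**Figure D2:**
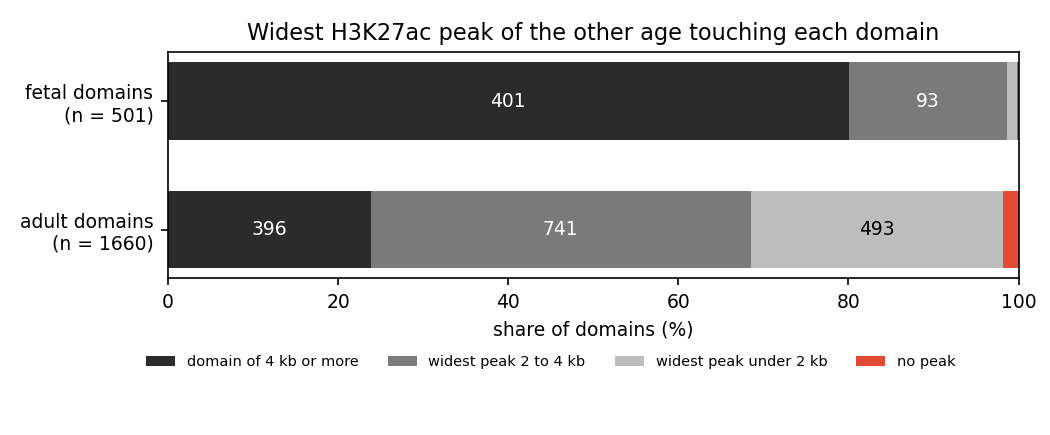
Share of fetal (n = 501) and adult (n = 1660) domains in % by the widest H3K27ac peak of the other age that touches them, with counts inside the bars. Most fetal domains (401) met an adult domain, while 396 adult domains met a fetal domain, 741 met a fetal peak of 2 to 4 kb, 493 a narrower one and 30 none.

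Adult peaks covered a median of 98.7% of a fetal domain (quartiles 90.8% and 100%), and fetal peaks covered a median of 69.9% of an adult domain (50.2% and 85.3%). Of the fetal domains, 18.4% (15.2% to 21.99%) were met by several adult peaks, at most 4. Of the adult domains, 65.5% (63.2% to 67.7%) were met by several fetal peaks, at most 14. Where a fetal domain touched an adult domain, the adult peak was the wider in 316 of 401 and the fetal in 85, with medians of 5980 bp and 4906 bp. Both peaks of a pair were chosen by width, and adult peaks were wider over the whole list (median 700 bp against 521 bp). These widths are therefore a description and not a trait of domains. Adult domains with a gene start met a fetal domain more often (181 of 551, 32.8%) than those without (207 of 1062, 19.5%), a difference of 13.4 points (8.82 to 17.98). For fetal domains this difference was 0.898 points (-6.33 to 7.84).

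The only fetal domain that met no adult H3K27ac peak lay over the start of Igf2bp3, the gene of an oncofetal RNA-binding protein that acts with Lin28b in fetal progenitors. It measured 4107 bp (chr6:49213840-49217946) with a fold over background of 8.37, near the lower width limit. The rest of the gene was not free of adult acetylation, with 12 fetal and 5 adult H3K27ac peaks over the gene body, of which the widest adult one measured 1706 bp. The domain itself still carried H3K4me1 in adult cells, over 71.7% of its bases in HPC and 68.3% in HSC, against 33.2% and 37.4% in the fetal lists. It was also the single fetal domain to touch a peak of the adult second K27 list, by 303 bp, where 0.492% of all fetal H3K27ac peaks did so, and that peak had a −log10 q of 0.777. Hmga2, a chromatin protein of fetal stem cells, had a fetal domain of 5021 bp at its start (chr10:120473550-120478570), where the widest adult peak was 3378 bp. Lin28b, the RNA-binding protein that keeps the fetal programme on, fell just under the limit, with a fetal peak of 3868 bp over one of its starts (chr10:45467081-45470948). Its gene body held 6 fetal H3K27ac peaks and no adult one.

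The fetal domains that adult peaks covered least, after Igf2bp3, were an intergenic one whose nearest gene was Cyria (4049 bp, chr12:12546799-12550847, 40.6% covered), and those at Bmpr2 (5747 bp, 48.4%), Skap2 (4731 bp, 49.7%) and Eml4 (4221 bp, 54.9%). Bmpr2 encodes a BMP receptor and its domain held the gene's start. H3K4me1 covered 42.8% to 56.1% of the Bmpr2 domain and at least 80.1% of the Skap2 and Eml4 domains in each of the 4 lists.

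The 30 adult domains that met no fetal H3K27ac peak measured 4004 to 8546 bp, and outside chromosome 18 there were 2 that held a gene start, those of Hdac7 and Bpifb5. The widest lay over Mroh2a and Hjurp (8546 bp, chr1:88257314-88265859, fold over background 4.49). Next came a domain 108776 bp from Irf2bp2 (6643 bp, chr8:126702763-126709405, fold 14.2), one inside Cpne2 (5241 bp, chr8:94540062-94545302), one inside Erg (5173 bp, chr16:95401063-95406235), one inside Sema7a (5067 bp, chr9:57953839-57958905) and one inside Col11a2 (5043 bp, chr17:34056480-34061522). Outside this order, chosen after their values were seen, were domains at Hdac7 (4968 bp), which encodes a histone deacetylase, and in Stat3 (4297 bp), the transducer of interleukin-6 signals. Fetal HPC H3K4me1 touched 29 of the 30 (96.7%, 83.3% to 99.4%), and fetal HSC H3K4me1 touched 27. Among all 36899 adult H3K27ac peaks with no fetal H3K27ac peak, fetal HPC H3K4me1 touched 69.2%, but those were mostly narrow, and of the 744 that were 2 to 4 kb wide it touched 94.1% (92.2% to 95.6%). The exception was the Cpne2 domain, which fetal HPC H3K4me1 did not touch and fetal HSC H3K4me1 covered to 8.68%, whereas both adult H3K4me1 lists covered it fully.

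Among adult domains that did meet a fetal peak, the least covered were at Myl10 (5390 bp, 3.43% covered), Rhoq (5351 bp, 3.87%), Atp8b4 (4658 bp, 4.55%), Csk (4613 bp, 4.79%) and Clcf1 (6107 bp, 4.85%). Each met 1 fetal peak of 185 to 296 bp. Fetal HPC H3K4me1 covered at least 89.8% of all 5.

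A minority of domains had a close neighbour. Another domain of the same list lay within 10 kb of 45 fetal domains (8.98%, 6.78% to 11.8%) and of 341 adult domains (20.5%, 18.7% to 22.6%). The same share was not counted for narrower peaks. The adult list also held more domains (1660 against 501), so the 2 shares do not compare how closely domains cluster. The densest fetal stretch, 72211 bp reaching into Lmo2, held 4 domains with 29443 bp in all, and the adult list had 4 domains in that stretch. At Flt3 and Pan3, where Flt3 encodes the cytokine receptor of lymphoid-primed progenitors, 3 fetal and 5 adult domains fell within 100 kb. The densest adult stretches held 6 domains each. One lay over Adgrg1 (the adhesion receptor GPR56 of stem cells) and Adgrg3, where the fetal list had 2 domains among 16 peaks. The other lay over Septin9, a cytoskeletal GTPase, where the fetal list had 12 peaks and no domain. Zmiz1 held 5 adult domains and 1 fetal domain.

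Domains held annotated starts of coding genes more often than H3K27ac peaks in general, but less often than peaks of the next width class. A start lay inside 211 of 488 fetal domains (43.2%, 38.9% to 47.7%), against 13.2% of all fetal peaks and 52.4% of those 2 to 4 kb wide. It lay inside 551 of 1613 adult domains (34.2%, 31.9% to 36.5%), against 14.0% of all adult peaks and 42.0% of those 2 to 4 kb wide. Chromosome 18 is left out of these counts, since no start there was used. Domains minus the narrower class gave -9.12 points in fetal (-13.7 to -4.47) and -7.88 points in adult HPC (-10.4 to -5.31). Fetal domains held a start more often than adult ones, by 9.08 points (4.16 to 14.1), though with a minimum width of 5 kb the difference was 4.06 points with an interval that included 0 (-3.18 to 11.6). Starts of 2 genes lay in 22 fetal and 47 adult domains, and 5 adult domains held 3 or more, at most 5. Of the domains with no start, 187 of 277 fetal and 738 of 1062 adult ones overlapped a gene body, and the other 90 and 324 touched none. Counted by gene, 230 of 17491 genes (1.31%) had a start in a fetal domain and 600 (3.43%) in an adult domain.

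H3K4me1 of HPC of the same age touched 498 of 501 fetal and 1657 of 1660 adult domains, against 75.4% of all fetal and 86.9% of all adult H3K27ac peaks, and 98.9% and 99.5% of those 2 to 4 kb wide. At a gene start it mostly flanked the H3K27ac summit in place of covering it. A wide peak touches others easily, so the H3K27ac summit, a single position in a peak of any width, was used as a measure. The summit lay inside an H3K4me1 peak in 59.3% of fetal domains (54.9% to 63.5%), against 60.2% of all fetal peaks and 44.4% of those 2 to 4 kb wide. It did so in 67.8% of adult domains (65.5% to 70.0%), against 70.2% of all adult peaks and 54.5% of those 2 to 4 kb wide. With the H3K4me1 lists of HSC the shares were 57.1% in fetal domains, where all fetal peaks gave 58.4%, and 67.5% in adult domains, where all adult peaks gave 62.2%. Domains thus exceeded the next width class by 14.9 points (10.3 to 19.3) in fetal and 13.3 points (10.8 to 15.8) in adult HPC, and in HPC stood near the share of their whole list.

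Gene starts divided the domains. In fetal HPC the summit lay in H3K4me1 in 63 of 211 domains with a start (29.9%, 24.1% to 36.3%) and in 225 of 277 without (81.2%, 76.2% to 85.4%), 51.4 points apart (43.2 to 58.5). In adult HPC it did so in 175 of 551 with a start (31.8%, 28.01% to 35.8%) and 920 of 1062 without (86.6%, 84.4% to 88.5%), 54.9 points apart (50.3 to 59.1). Among start-holding peaks of 2 to 4 kb the share was lower still, 16.6% in fetal and 13.1% in adult HPC. Domains exceeded these by 13.2 points (7.27 to 19.9) and 18.6 points (14.7 to 22.8). A wider peak can hold a start further from its summit. That distance was not compared between the classes, so this difference is not free of width. Without a start the domains stood 6.64 points above the narrower class in fetal (1.34 to 11.2) and 2.03 points above it in adult HPC (-0.365 to 4.21), the last with an interval that included 0.

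**Figure D3:**
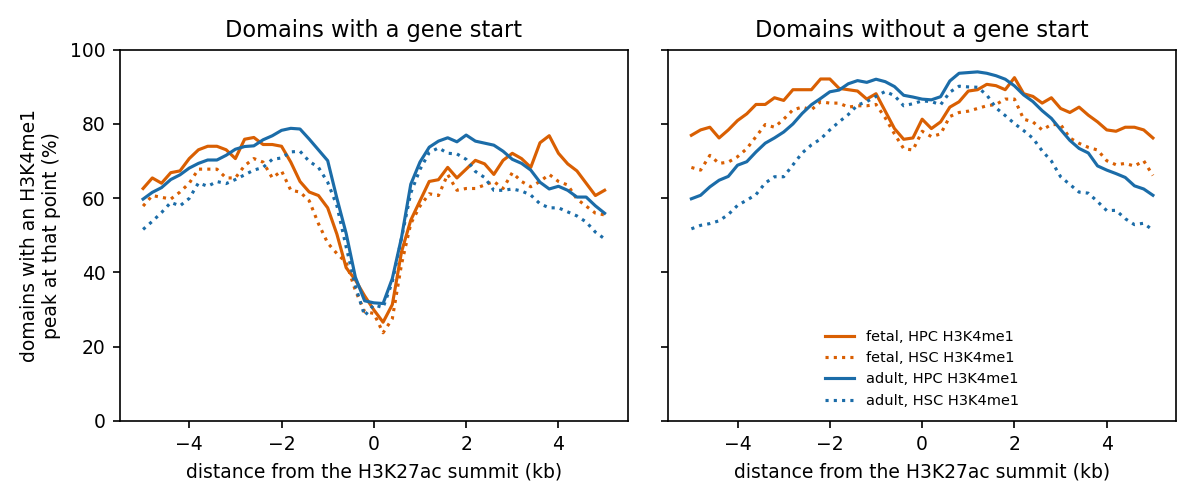
Share of domains in % with an H3K4me1 peak at each distance in kb from the H3K27ac summit, for domains with (left) and without (right) a gene start; orange is fetal, blue is adult, solid lines are HPC and dotted lines HSC H3K4me1. With a start the adult HPC line falls from 78.2% at 2 kb left of the summit to 31.8% at it. Without a start the adult HPC line stands at 88.6% and 86.6% at these points, and the fetal HPC line at 92.1% and 81.2%.

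Away from the summit the start-holding domains returned to high values. In adult HPC, 78.2% of them had an H3K4me1 peak 2 kb to the left of the summit and 77.0% 2 kb to the right, and in fetal HPC 73.9% and 67.8%. Read from the start itself and in the direction of transcription, 9.15% of the 295 starts in fetal domains and 25.03% of the 779 in adult domains lay in HPC H3K4me1 of the same age. At 1 kb upstream these values were 64.4% and 76.6%, and at 1 kb downstream 41.7% and 53.9%. At 2 kb downstream they reached 74.2% and 78.0%. The acetylated domain itself reached further downstream than upstream, covering 68.1% of fetal starts' positions 2 kb downstream against 51.5% at 2 kb upstream, and 72.5% against 51.5% for adult starts.

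H3K4me1 covered a median of 81.6% of a fetal domain in fetal HPC and 80.1% of it in adult HPC. It covered a median of 97.8% of an adult domain in adult HPC and 89.9% in fetal HPC. With H3K4me1 of HPC of the same age, the median was 92.8% over all fetal and 100% over all adult H3K27ac peaks. For peaks of 2 to 4 kb it was 56.2% in fetal and 81.4% in adult HPC. By the median, domains thus lay above the next width class and below their whole list. The lower quartile stood the other way to the whole list. It was 54.0% in fetal domains against 6.44% over all fetal peaks, and 73.5% in adult domains against 52.6% over all adult peaks. The widest domain was among the exceptions: H3K4me1 covered 17.1% of the fetal Hoxa9 domain in fetal HPC and 35.1% in adult HPC, compared with 96.5% and 100% of the Egfl7 domain and 100% at both ages of the Celf2 and Etv6 domains.

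Domains rarely met the second K27 set, and so did H3K27ac peaks of any width. None of the 501 fetal domains touched a fetal second K27 peak, which allows a share of up to 0.599% by a limit of 3 counts (0.761% by the Wilson bound), against 0.482% of all fetal H3K27ac peaks, so that at this number of domains no difference from the whole list was detectable. In adult HPC 1 of 1660 did (0.0602%, 0.0106% to 0.340%), against 0.0269% of all adult peaks. That domain held the start of Huwe1, a ubiquitin ligase gene on chromosome X (4180 bp, chrX:151800531-151804710), and the second K27 peak there had a −log10 q of 1.38. Between ages, 6 adult domains touched a fetal second K27 peak (0.361%, 0.166% to 0.786%), near the 0.284% of all adult H3K27ac peaks, among them those at Dnajc6, Nr4a3, Bcl6 and Wfdc5 and one in an interval near Ppara. The last, of 4022 bp (chr15:85668509-85672530), shared 678 bp with a fetal second K27 peak of −log10 q 7.46 and was one of the 30 adult domains with no fetal H3K27ac peak. Bcl6 encodes a repressor of germinal centre B cells, and Nr4a3 an orphan nuclear receptor. Because the labels of the second set conflict, these counts do not say which modification was absent.

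At the Hoxa cluster the sets were neighbours. The fetal second K27 list resumed 3911 bp to the right of the fetal domain, with a peak of 3069 bp inside Hoxa10 (chr6:52236934-52240002), and the adult list 1968 bp to the right of the adult domain, with a peak of 973 bp (chr6:52236931-52237903). From there second K27 peaks ran over Hoxa11 and Hoxa13, and the window drawn in the upper map held 20 fetal and 18 adult ones. To the left, the nearest fetal second K27 peak lay 50789 bp from the fetal domain, in Hoxa2.

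Coding genes whose body shared at least 1 base with a domain numbered 423 in fetal HPC (1.93% of 21883) and 1184 in adult HPC (5.41%), and 340 were in both, which is 80.4% of the fetal and 28.7% of the adult genes. Long genes have more room for a domain: the median gene body was 50543 bp for fetal and 34711 bp for adult genes with a domain, against 17170 bp over all. The lists below were put together with earlier results of these data known, so their counts are descriptions. The HSC and early progenitor factors stood far above these backgrounds, with a domain at 14 of 25 in fetal HPC (56.0%, 37.1% to 73.3%) and at 19 in adult HPC (76.0%, 56.6% to 88.5%). Their median gene length was 33386 bp.

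**Figure D4:**
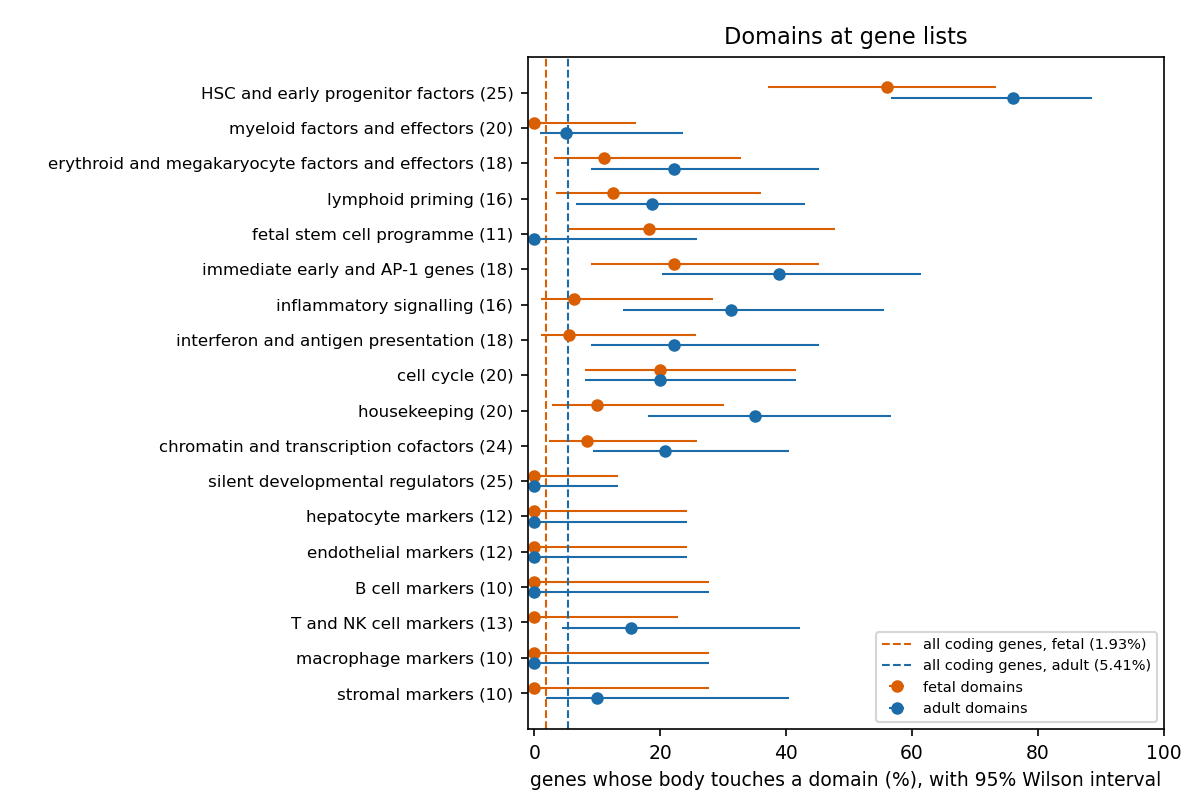
Share of each gene list in % whose body touches a fetal (orange) or adult (blue) domain, with 95% Wilson intervals over genes; dashed lines mark 1.93% and 5.41% of all coding genes, and the number of genes follows each name. HSC and early progenitor factors reach 56.0% and 76.0%, and silent developmental regulators, hepatocyte, endothelial, B cell and macrophage markers lie at 0 at both ages.

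Among the stem and progenitor factors, Hoxa9 had the widest peak at both ages, as given above. The next were ETS and homeobox genes. The widest peak at Etv6 measured 10820 bp in fetal and 15095 bp in adult HPC, that at Meis1, the homeobox partner of HOX proteins, 9044 and 15329 bp, and that at Fli1, an ETS factor, 8683 and 12904 bp. At Erg the widest fetal peak (10063 bp) and the widest adult peak (14869 bp) were different intervals, and the adult peak over the fetal one measured 10557 bp. Of the 65 list genes with a domain at either age and a peak at both, 11 had widest peaks that did not overlap between ages: Erg, Prdm16, Gata2, Igf2bp3, Nfkb1, Irf2, Cdk6, Cdkn1b, Ccnd3, Dnmt3a and Lck. For these 11 the paired widths below describe the gene and not one interval. The same share over all coding genes with a peak at both ages was not counted, so the 11 are a description only. Ikzf1, the Ikaros factor of lymphoid fate, differed little, at 7982 and 8396 bp, as did Spi1, the gene of the myeloid factor PU.1, at 7584 and 8861 bp. Lmo2, Mecom, Gfi1, Runx1 and Zfp36l2 also had a domain at both ages. Genes with an adult domain and no fetal one, named after their values were seen, were Hlf (2279 bp fetal, 9076 bp adult), Lyl1 (2794 and 9418 bp), Kit (3310 and 6868 bp), Cd34 (3324 and 6810 bp), Myb (2308 and 6198 bp), Gata2 (2739 and 4482 bp) and Tal1 (3940 and 4309 bp). Hlf is a factor of long-term stem cells and Kit the receptor of stem cell factor. Tal1 lay just to either side of the limit. In the other direction stood Mycn (4496 bp fetal, 3867 bp adult) and Prdm16 (4133 and 3714 bp), both close to it at each age. Cbfa2t3 and Ldb1 had H3K27ac peaks at both ages and no domain.

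Lineage factors and effectors are given list by list. None of 20 myeloid genes had a fetal domain (0%, 0% to 16.1%). In adult HPC 1 did (5%, 0.888% to 23.6%), Mpo (myeloperoxidase, 979 bp fetal and 4376 bp adult, chr11:87791571-87795946). Both intervals include the share of all coding genes and overlap those of the erythroid and lymphoid lists below. Of 18 erythroid and megakaryocyte genes 2 had a fetal (11.1%, 3.10% to 32.8%) and 4 an adult domain (22.2%, 9.001% to 45.2%), shares above the 1.93% and 5.41% of all coding genes. Nfe2, a factor of platelet formation, had 8582 and 9580 bp, and Bcl11a, the repressor of fetal globin, 5465 and 8277 bp. Adult domains alone stood at Zfpm1 (6632 bp), the partner of GATA1, and Gp9 (4333 bp), a platelet glycoprotein. Of 16 lymphoid priming genes, Flt3 (4353 bp fetal, 9988 bp adult) and Rag2, a recombinase gene (4752 and 5705 bp), had domains at both ages, and Dntt, the terminal transferase (670 and 4883 bp), in the adult list, which made 12.5% (3.50% to 36.02%) and 18.8% (6.59% to 43.01%). Of the 11 matched genes of the fetal programme, Igf2bp3 and Hmga2 had a fetal domain and none an adult one. The fetal share was 18.2% (5.14% to 47.7%). At 11 genes a share of 0 has an upper bound of 25.9%, so no difference from the adult background was detectable.

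Immediate early genes, which respond to signals within minutes, had a fetal domain in 4 of 18 cases (22.2%, 9.001% to 45.2%). They had an adult domain in 7 (38.9%, 20.3% to 61.4%). Over all coding genes the shares were 1.93% and 5.41%. At both ages these were Zfp36 (6158 and 10944 bp), Klf6 (4949 and 5543 bp), Junb (4709 and 8287 bp) and Ier2 (4520 and 6727 bp). Egr1 (2248 bp fetal, 8712 bp adult), Myc (1714 and 4722 bp) and Fos (1965 and 4492 bp) were added in the adult list. Their gene bodies are short, with a median of 3327.5 bp over the list. How cells were handled before fixation can act on these genes, and its part in these widths was not tested.

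Of 16 inflammatory signalling genes, 6.25% (1.11% to 28.3%) had a fetal and 31.25% (14.2% to 55.6%) an adult domain. All coding genes gave 1.93% and 5.41%. Rel, a NF-kB subunit, had a domain at both ages (4860 and 4937 bp). Adult domains also stood at Nfkb1 (11138 bp; fetal widest 3730 bp), the tumour necrosis factor receptors Tnfrsf1b (8969 bp; 3556 bp) and Tnfrsf1a (4197 bp; 1360 bp), and Stat3 (4347 bp; 3623 bp). Among 18 interferon and antigen presentation genes, Irf2 had domains at both ages (6368 and 5747 bp), and Irf1 (4518 bp; 1113 bp), B2m (4485 bp; 2492 bp) and Ifitm3 (4160 bp; 1524 bp) in the adult list. The shares were 5.56% (0.988% to 25.8%) in fetal and 22.2% (9.001% to 45.2%) in adult HPC. The fetal intervals of the inflammatory and interferon lists include the fetal share of all coding genes. The cell cycle list gave 4 of 20 genes (20%, 8.07% to 41.6%) at each age, the same 4: Cdk6 (5115 and 12140 bp), Ccnd2 (5161 and 6928 bp), Ccnd3 (4252 and 8435 bp) and Cdkn1b (4124 and 6672 bp). All 4 act in G1, as D cyclins, their kinase or an inhibitor of cyclin-dependent kinases.

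**Figure D5:**
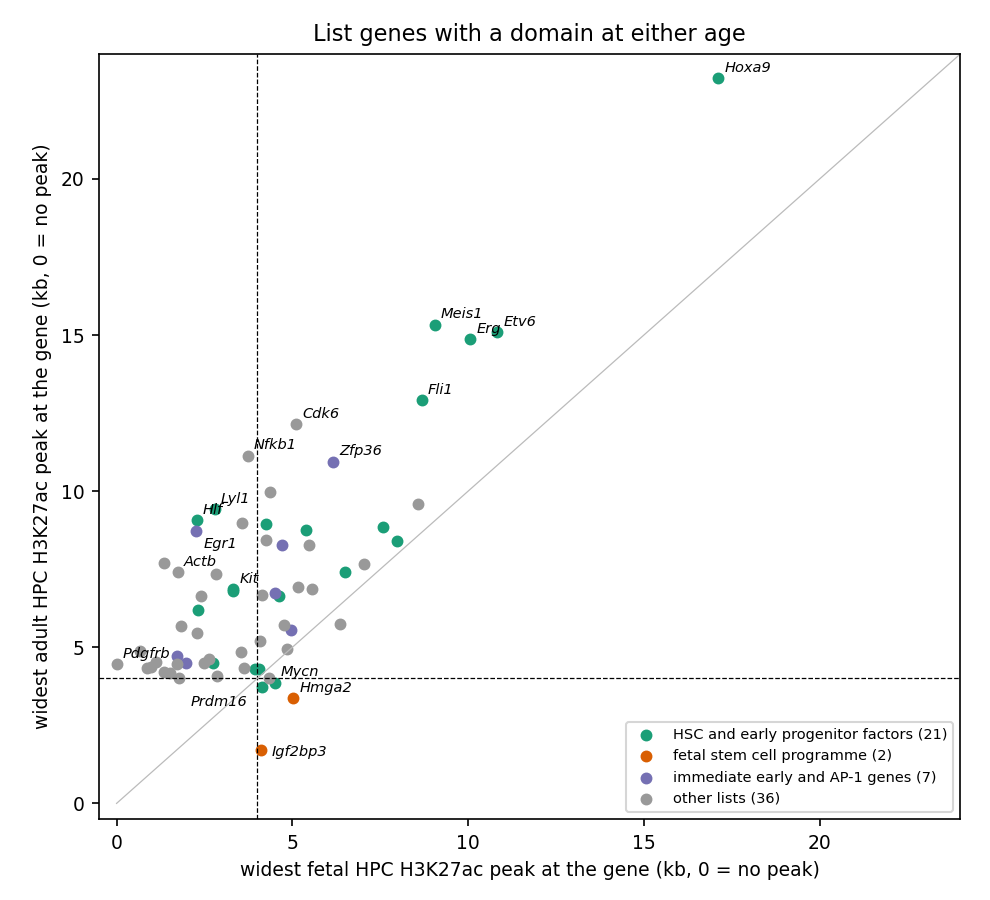
Widest adult against widest fetal H3K27ac peak in kb at each of the 66 list genes that touch a domain at either age, with dashed lines at 4 kb and the grey line at equal width; colours give the list, and at 11 genes the 2 peaks are different intervals. Hoxa9 stands apart at 17105 and 23217 bp, and Igf2bp3, Hmga2, Prdm16 and Mycn are the named genes below the horizontal and right of the vertical line.

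Housekeeping genes were not free of domains. Of 20, Ywhaz (4091 and 5200 bp) and Tbp (4346 and 4002 bp) had one at both ages, and 7 (35.0%, 18.1% to 56.7%) had one in adult HPC, among them Actb (1739 bp fetal, 7416 bp adult), Gapdh (2641 and 4619 bp), Pgk1 (1715 and 4458 bp) and Rpl13a (2858 and 4074 bp). Of 24 chromatin and transcription cofactor genes, all with H3K27ac peaks at both ages, Arid1a (7033 and 7651 bp) and Brd2 (5550 and 6869 bp) had domains at both. The adult list had domains at 5 of the 24, Hdac7 (5675 bp) and Dnmt3a (4862 bp) among them. The cofactor shares were 8.33% (2.32% to 25.8%) in fetal and 20.8% (9.24% to 40.5%) in adult HPC. The median gene length of this list was 71815.5 bp. Silent developmental regulators had none among 25 genes at either age (upper bound 13.3%). Markers of other cells gave none for hepatocytes (12 genes), endothelium (12), B cells (10) or macrophages (10). A share of 0 has an upper bound of 24.2% at 12 genes and 27.8% at 10. For all these lists, no difference from the 1.93% (fetal) and 5.41% (adult) of all coding genes was detectable. In the adult list 2 of 13 T and NK cell markers had a domain, Gata3 (5470 bp) and Lck (4011 bp), and 1 of 10 stromal markers, Pdgfrb (4469 bp). These shares were 15.4% (4.33% to 42.2%) and 10% (1.79% to 40.4%), and both intervals include the adult share of all coding genes. Gata3 is also known from hematopoietic stem cells. The fetal list had no domain at any gene of these marker lists.

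MicroRNA hairpins lay in domains in 7 of 1005 cases in fetal (0.697%) and 25 in adult HPC (2.49%), and all 7 fetal ones were among the 25. The Hoxa9 domains held Mir196b (chr6:52230081-52230165), which acts on HOX transcripts. Mir142 and Mir142b, read from opposite strands of one locus (chr11:87756841-87756955) and known from blood cells at large, lay in a fetal domain of 4130 bp and an adult domain of 6412 bp. Mir21a (chr11:86584067-86584158) lay at the edge of a fetal domain of 4969 bp and inside an adult one of 9390 bp. The others of the 7 were Mir1191b, Mir1931 and Mir1894. The adult list added Mir223 (chrX:96242817-96242926), a myeloid microRNA, in a domain of 4744 bp. No fetal H3K27ac peak covered this hairpin. It also added Mir23a, Mir27a and Mir24-2, which lie together in an adult domain of 4330 bp and a fetal peak of 3267 bp, and Mir191 and Mir425 in a domain of 4511 bp. Hairpins that share a cluster are not independent of each other.

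Promoters with their start in a domain were rich in CpG. The 295 starts in fetal domains belong to 230 genes and the 779 in adult domains to 600. Starts of the same gene can lie close together, and the intervals below count them as independent. The median number of CpG dinucleotides was 25 in the 295 promoters of fetal domains (quartiles 15 and 34) and 21 in the 779 of adult domains (8 and 31). It was 24 for starts in peaks of 2 to 4 kb of either list, 13 over all 21262 promoters and 4 for the 10388 starts in no H3K27ac peak of either age. GGGCGG, the GC box, was found on either strand in 66.1% (60.5% to 71.3%) of fetal-domain and 59.6% (56.1% to 63.0%) of adult-domain promoters, against 46.2% of all promoters and 67.9% and 69.7% in the class of 2 to 4 kb. CCGGAAG, an ETS-type element, was found in 14.9% (11.3% to 19.4%) and 10.7% (8.7% to 13.0%), against 11.6% of all promoters, and was more frequent in the class of 2 to 4 kb, at 23.8% and 21.8%. TGACGTCA, the cAMP response element, was found in 1.36% and 1.80%, against 2.23% of all promoters and 5.50% and 4.77% in the narrower class. TATAAA was found in 7.12% and 7.45%, against 12.6% of all promoters and 6.14% and 5.78% in the narrower class. AGATAA was found in 4.41% and 5.78%, against 9.65% of all and 4.55% and 4.92% in the narrower class. TGTGGT was found in 10.2% and 13.7%, against 14.97% of all and 10.2% and 11.2% in the narrower class. CCAAT was found in 29.8% and 32.1%, against 38.2% of all and 36.8% and 37.2% in the narrower class. TGANTCA was found in 4.41% and 5.13%, against 6.99% of all and 4.11% and 4.12% in the narrower class. CACGTG was found in 9.49% and 8.09%, against 7.84% of all and 11.2% and 10.6% in the narrower class. GCATGCGC was found in 4.07% and 3.08%, against 3.51% of all and 6.40% and 5.74% in the narrower class. TTGCGCAA was found in only 2 fetal-domain (0.678%) and 4 adult-domain promoters (0.513%), against 0.221% of all. Intervals were 0.186% to 2.44% and 0.200% to 1.31%, and the narrower class gave 0.376% and 0.358%. These are matches of letters in a short window that excludes most of a domain, and they say nothing on binding elsewhere in it.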

How the data were processed

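Peaks were called with MACS2 after alignment with Novoalign to mm10 (GRCm38), per the submitters' processing notes. Software versions, the peak filter, the cutoff and how the 3 input libraries served as control: not given in the sources used here, as is the depth of each library. The authors deposited 1 peak list per group, pooled over its libraries, with a fold over background (a ratio) and −log10 q for each peak and the summit position. These values belong to each peak and were not compared between lists.

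Domains were peaks with a width (end minus start) of at least 4 kb. Peaks touched when they shared 1 bp. Coding genes (21883) and gene starts (21262 starts of 17491 genes) came from RefSeq tables of GRCm38, and those of 298 of the 300 listed names were found. Starts on chromosome 18 were not used here. Shares carry Wilson intervals and differences Newcombe intervals (Python 3.11.15, scipy 1.17.1). Without replicates no test across samples was made. The overlap code was tested on simulated intervals. The members, gene lists and comparisons were chosen with earlier results of these data known. Named per age were the 12 widest domains, up to 4 genes of each list by width, the 6 widest domains without a peak of the other age, the 5 least covered by it and the 5 densest stretches; not all are printed. Other widths, merging of near peaks, equal numbers of peaks, stricter lists and other overlap rules were tried.
A few items of the lists and intervals are not reported here.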

Additional observations from a re-analysis of the deposited data

How the results depend on the processing

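No paired analysis was possible because the libraries of each group were pooled into 1 peak list; for the same reason no library could be left out. Of 73 values of 12 results under 11 other settings, 37 stayed within the main interval, or within 1.5 times the main count, and 36 did not. The cause of these shifts was not tested, except where the setting itself changes which peaks count.

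With a minimum of 3 kb there were 1629 fetal and 3740 adult domains, with 5 kb 207 and 855, with peaks within 1 kb merged first 1521 and 3567, and with equal numbers 501 in each list. Fetal domains touching an adult domain came to 75.9% after merging and 41.3% with equal numbers. Adult domains touching a fetal one came to 33.4% at 3 kb, 19.8% at 5 kb, 31.4% after merging and 39.9% with equal numbers.

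Summits in HPC H3K4me1 at 3 kb, 5 kb and after merging were 50.4%, 67.1% and 66.5% of fetal domains, and 62.6% (3 kb) and 73.2% (merged) of adult domains. In HSC H3K4me1 they were 49.2%, 64.7% and 64.6% in fetal and 61.8% (3 kb) and 71.8% (merged) in adult domains. Counting 1 shared bp in place of the summit gave 99.4% (fetal, HPC and HSC), 99.8% (adult, HPC) and 99.7% (adult, HSC). The adult excess over fetal domains in HPC H3K4me1, 8.55 points (3.75 to 13.4), was 0.920 points (-5.91 to 8.24) at 5 kb.

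Gene starts were held by 50.3% of fetal domains at 3 kb and 38.3% after merging, and by 36.7% and 30.1% of adult domains. With either end of any coding gene, a setting chosen after seeing the data, the adult share was 36.7%. The adult share touching the second K27 list was 0% at 5 kb, without chromosomes X and Y, with equal numbers and with second K27 peaks of −log10 q of at least 5.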
